A study of Mus musculus with 15 samples.

Results

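Nuclear receptors are transcription factors that bind hormones, vitamins, fatty acids or foreign chemicals, and coregulators are the proteins they recruit. The 33 genes described here, 21 receptors and 12 coregulators, were taken by name from a list that left out the receptors of the circadian clock, of oxysterols and bile acids, and PPAR alpha and gamma. All 33 were among the 16809 genes of the deposited table, and 32 of them were among the 12658 genes with enough counts to be tested. The exception was Hnf4g, with 1 to 6 expected counts per library. RNA from the livers of wild-type mice was sequenced in 5 groups of 3 libraries each, all after 6 weeks of feeding. Control mice ate standard feed. Model mice ate a high-fat diet in which lard and egg yolk powder made up 10% each, cholesterol 1% and sodium cholate 0.2%, with standard feed as the other 78.8%. The other groups ate a diet labelled high-fat, with its composition not restated, and received 1 flavonoid each by oral gavage, with daily doses per kg of body weight of 200 mg for quercetin, 75 mg for myricetin and 100 mg for kaempferol. The doses differed, so compound and dose cannot be told apart, and the labels name no gavage vehicle in the control or model group. The comparisons of model with control and of each flavonoid with model address what the diet and the flavonoids do to a hyperlipidemic mouse, the subject of the series title. The 3 flavonoid comparisons share the model libraries.

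Many of these receptors sit in the nucleus on short DNA elements, many of them paired with a retinoid X receptor (RXR). Without ligand, several hold a corepressor complex built on NCOR1, in which TBL1X, TBL1XR1 and the histone deacetylase HDAC3 keep nearby chromatin closed. Ligand reshapes the receptor so that coactivators of the NCOA family, PGC-1 beta and the Mediator complex take the corepressor's place. In liver, this family sets the rates of lipid, glucose, bile acid and drug metabolism.

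Library totals ran from 15853767 to 17576502 expected counts, with 14601 to 14919 genes above 0 per library, and no pair of libraries held identical values. A pair of libraries stood apart in cell-type markers, kaempferol library 8 with a summed 1157 CPM of macrophage markers and model library 5 with 33.7 CPM of adipocyte markers. The labels do not say that each library came from a separate mouse, so the p-values measure the spread between libraries. Hepatocyte markers were high in every library, with the summed level of 15 markers between 107213 and 162213 CPM, the expected counts scaled to a common library size. In bulk liver RNA, fewer cells of a type and less RNA per cell cannot be told apart. Levels of 1 gene across libraries are given in CPM with library sizes scaled by TMM (trimmed mean of M values), and levels of different genes are compared only in the deposited TPM, which correct for transcript length. Fold changes are log2 values ± SE (standard error), and adjusted p-values are Benjamini-Hochberg values from edgeR's quasi-likelihood test over all 12658 genes, with 0.05 as the threshold.

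The levels per length spanned a wide range. Nr1i3, which encodes the drug sensor CAR, averaged 138.9 TPM over the 15 libraries and Rxra, the main hepatic RXR, 111 TPM. Nr2f6, an orphan receptor, followed at 66.1 TPM, Ncoa4, a coactivator that also serves as the cargo receptor for ferritin, at 55.6 TPM and Nr1i2, which encodes the drug sensor PXR, at 42.2 TPM. These 5 genes led the list. Nr1i3 shares 3304 of its 4414 exon bases, and Nr2f6 1622 of 2983, with a gene on the opposite strand (GENCODE M21). The strand used in counting is not given in the sources used here, so their levels may include reads of those genes. At the low end were Nr3c2 at 2.16, Nrip1 at 1.63, Ppargc1b at 1.61, Nr4a1 at 0.963, Rarb at 0.86 and Hnf4g at 0.0653 TPM. The ranges over libraries of genes next to each other in this order overlapped, except between Rxra and Nr2f6 and between Rarb and Hnf4g.

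**Figure D1:**
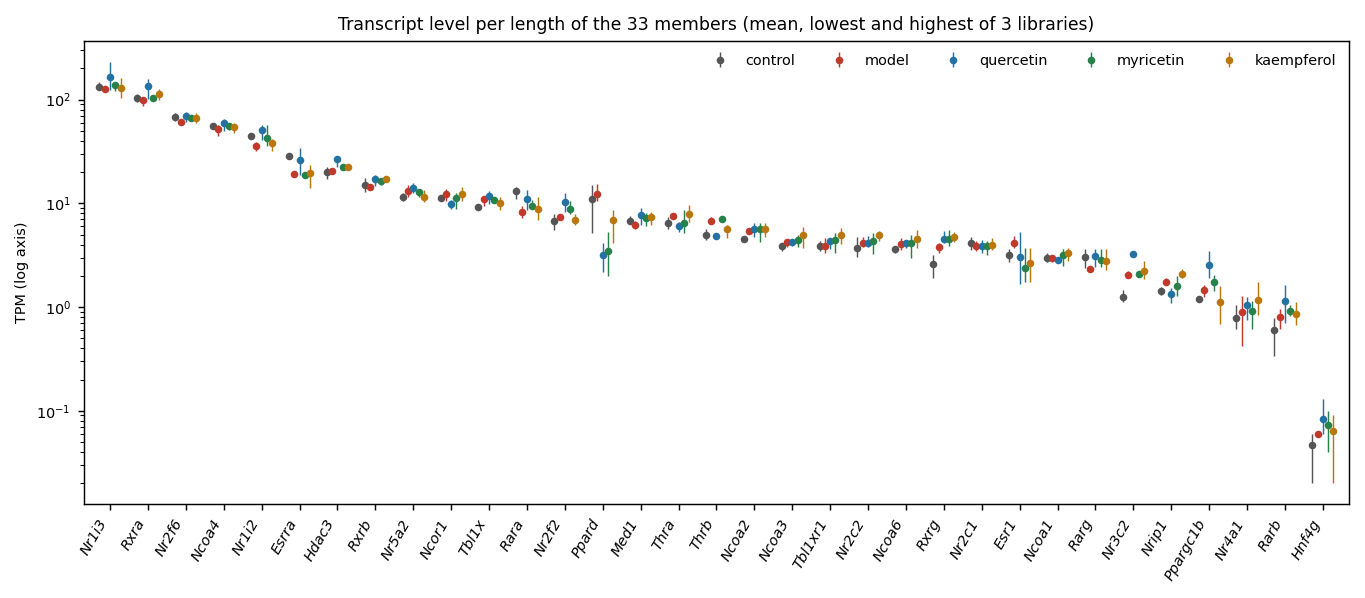
Deposited TPM of the 33 genes on a log axis, ordered by their mean over the 15 libraries, with a point at each group's mean and a bar from the lowest to the highest of its 3 libraries. Nr1i3 and Rxra lie at the top, Hnf4g lies far below the rest, and Ppard has the groups spread widest apart among the genes of middle level.

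Between model and control liver, 4 of the 32 tested genes passed the threshold (12.5%), against 4.46% of all tested genes. The thyroid hormone receptor gene Thrb and the mineralocorticoid receptor gene Nr3c2 rose, and the retinoic acid receptor gene Rara and the estrogen-related receptor gene Esrra fell. The differences of the 32 ran from -0.58 to 0.77 on the log2 scale with a median of 0.16, where the median of all tested genes was -0.01. No coregulator passed. Without model library 5 and kaempferol library 8 together, the call of Nr3c2 was the only one of the 4 that held.

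Between quercetin and model liver, 5 of 32 passed (15.6%), against 7.82% of all tested genes. Nr3c2 rose further. Thrb, the fatty acid receptor gene Ppard, the corepressor gene Ncor1 and the repressor gene Nrip1 fell. Ppard had the greatest change of the 32, 4.56-fold lower, and the median difference was -0.03 against 0.01 for all tested genes. Without those same libraries 3 of the 5 held, those of Thrb, Ppard and Ncor1. Between myricetin and model 0 of 32 passed against 0.395% of all tested genes, and between kaempferol and model 0 of 32 passed against 0.0395%. At an unadjusted p under 0.05 edgeR had 3 genes for myricetin and 4 for kaempferol. The share of all tested genes at that cut was not counted, so these counts are not read as a result. DESeq2 called 1 gene of the set for myricetin, with its share of all genes not given here. It called 0 for kaempferol, against 195 of 12162 genes in all.

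Over all 5 groups together, edgeR's F test passed 8 of 32 genes (25%), against 16.1% of all tested genes. They were Thrb, Rara, Ppard, Rxrg, Esrra, Nr3c2, Ncor1 and Nrip1. The 3 flavonoid groups differed from each other in 2 of 32 genes (6.25%), Thrb and Nrip1, against 2.58% of all tested genes. In the authors' deposited table, q values under 0.05 marked the same 4 genes between model and control, where the table called 6.28% of its genes. That table marked Thrb, Thra, Ncor1, Ppard and Nrip1 for quercetin against 5.95% of its genes. It marked Ppard and Esr1 for both myricetin and kaempferol, against 1.73% of its genes each time.

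**Figure D2:**
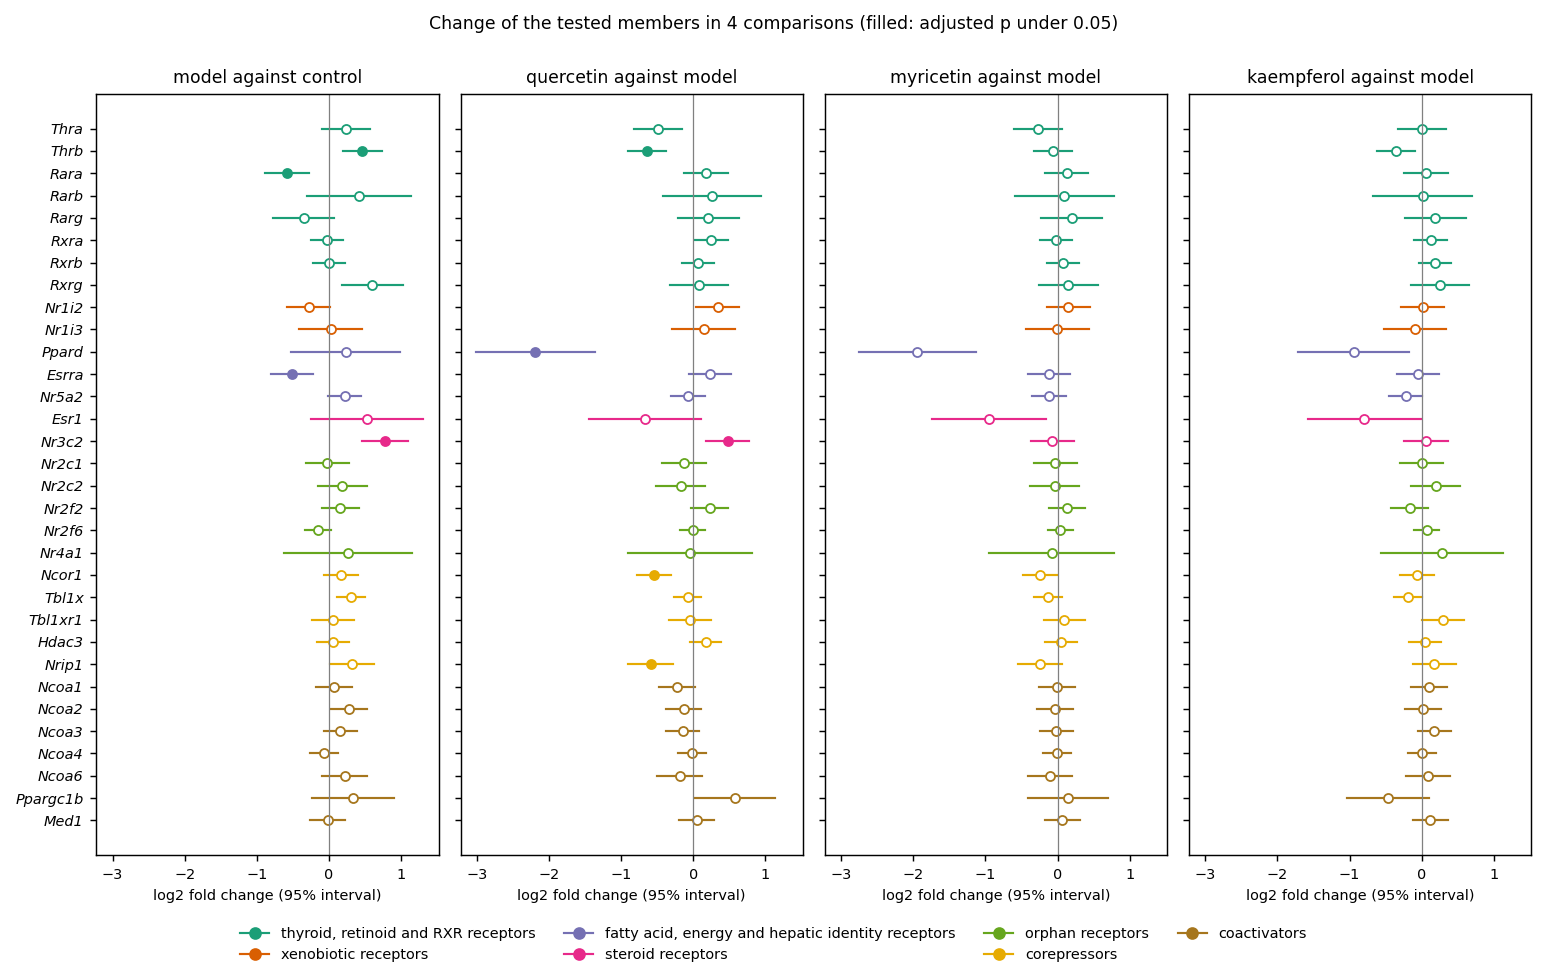
Log2 fold change of the 32 tested genes in the 4 comparisons, with 95% intervals, in role colours and with filled points at an adjusted p under 0.05. Filled points number 4 for model against control, 5 for quercetin against model and 0 for myricetin and for kaempferol, and Ppard lies far to the left in the quercetin and myricetin panels.

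Genes of other lists were counted in the same comparisons. Of all tested genes, 4.46% were called between model and control and 7.82% between quercetin and model. The shares were 0.395% for myricetin and 0.0395% for kaempferol. The lists counted here and in the paragraphs below are to be read beside these shares, and a single call in a list is not read as movement of that list. Endothelial markers rose in model liver in 6 of 16 cases with none lower, and their summed level was 200.8 to 308 CPM in control and 336 to 434 CPM in model libraries. Macrophage markers rose in 4 of 16 cases with none lower, from 154 to 254 CPM in control to 323 to 462 CPM in model. Of 15 hepatocyte markers 1 fell, Hnf4a, with summed levels of 145937 to 162213 CPM in control and 113505 to 139141 CPM in model. Every marker in the deposited table was above 0 in some library. Genes of cytosolic ribosomal proteins fell in model liver in 5 of 30 cases, from a summed 6639 to 6966 CPM down to 5401 to 5606 CPM, and rose in quercetin liver in 14 of 30, to 6429 to 7829 CPM. Of the scarcer cell types, 1 of 9 tested T and NK cell markers (Cd4) rose in model and fell in quercetin liver. Of 4 tested neutrophil markers 2 (S100a8 and S100a9) rose in quercetin liver, while Ly6g, Mpo, Elane and Retnlg were too low to test. Of 3 tested adipocyte markers 2 (Cidec and Cfd) rose in model liver. Adipoq, Plin1 and Retn were too low to test and Lep was not in the deposited table. Cfd averaged 9.33 ± 12.3 CPM in model liver (SD, n = 3), so its libraries differed widely. No call was made among 14 stellate cell and fibroblast or 5 B cell markers in these comparisons. Their part in the results on receptors and coregulators was not tested.

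Thyroid hormone receptors switch target genes on when they hold triiodothyronine, and the beta form encoded by Thrb is the main one in hepatocytes. In control liver Thrb was at 23.3, 32.8 and 25.7 CPM, and in model liver at 35.9, 38.3 and 38.6 CPM. Quercetin libraries had 21.4, 22.9 and 28.1 CPM, all below the model libraries and inside or just under the control range. Myricetin libraries stayed at the model level, with 35.9, 37.3 and 34.9 CPM, and kaempferol libraries lay between, with 31.2, 26.7 and 30.0 CPM. Thrb rose by 0.46 ± 0.13 in model against control (n = 3 each, edgeR adjusted p = 0.0463). The groups did not overlap. It fell by 0.64 ± 0.13 in quercetin against model (n = 3 each, edgeR adjusted p = 0.00587), also with no overlap. That second difference passed in all 16 alternative settings and left-out libraries. The rise in model liver passed only without control library 2 (edgeR adjusted p = 0.0399) when single libraries were left out, and reached 0.16 without control library 3.

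Thrb lies on chromosome 14 at 17660261 to 18038090 of GRCm38, plus strand. RefSeq gives it a pair of start sites, and the stretches just upstream are shown because they carry different elements although both feed the same gene count. Capitals in the first mark AGGTCA, the core element that nuclear receptors recognise, and capitals in the second mark CACGTG, the E-box bound by basic helix-loop-helix factors, the circadian CLOCK and BMAL1 proteins among them. Ppard, whose change was the greatest, is shown with them and holds none of the elements searched. Bases that lie in annotated exons were left out.
Thrb upstream of the 5′ start, chr14:17660710-17660891, plus strand: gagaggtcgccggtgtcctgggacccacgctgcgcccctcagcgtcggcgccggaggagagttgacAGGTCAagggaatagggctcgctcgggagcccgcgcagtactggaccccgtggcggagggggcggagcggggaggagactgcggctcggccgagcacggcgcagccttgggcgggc
Thrb upstream of the internal start, chr14:17981394-17981528, plus strand: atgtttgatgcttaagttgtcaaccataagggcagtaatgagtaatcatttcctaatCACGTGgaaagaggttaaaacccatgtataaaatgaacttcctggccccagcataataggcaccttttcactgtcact
Ppard upstream, chr17:28232504-28232699, plus strand: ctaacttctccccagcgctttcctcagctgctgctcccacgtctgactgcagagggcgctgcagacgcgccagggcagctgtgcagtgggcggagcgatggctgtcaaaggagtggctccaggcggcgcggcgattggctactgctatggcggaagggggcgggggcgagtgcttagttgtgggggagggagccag
RefSeq promoter entries (GRCm38.p6) matched 27 of the 33 genes, and the elements were searched on both strands in the 250 bases before each start. AGGTCA was in 6 of 41 such windows of these genes (14.6%) and in 14% of 32851 windows genome-wide. CACGTG was in 3 of 41 (7.32%, in Nr1i3, Rara and Thrb) and in 6.02% genome-wide. The D-box forms TTATGTAA and TTACGTAA were in 0 of 41 and in 0.819% and 0.113% genome-wide. A match describes the letters only. The gene counts do not tell the Thrb starts apart.

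Thra, the alpha form, ran from 12.3 to 21.6 CPM over the 15 libraries. Quercetin libraries had 13.3, 14.4 and 13.7 CPM and model libraries 20.3, 17.4 and 20.2 CPM, without overlap, and the difference of -0.49 ± 0.16 missed the threshold (edgeR adjusted p = 0.0723), while the authors' deposited table gave it a q value of 0.0457 and a fit of only the groups compared put it past (0.037). Thra shares 263 of its 4614 exon bases with Nr1d1 on the opposite strand (GENCODE M21). The strand used in counting is not given in the sources used here, so reads of the shared bases cannot be assigned, and Nr1d1 was at 117 ± 32 CPM in quercetin against 5.95 ± 1.56 CPM in model liver (SD, n = 3). Of 9 thyroid hormone target genes, 0 passed between model and control and 1 fell with quercetin. That gene was Hr, a corepressor of thyroid and vitamin D receptors, which fell by 3.77 ± 0.68 (edgeR adjusted p = 0.00377). Its levels were low, 1.78, 2.04 and 5.99 CPM in model and 0.222, 0.111 and 0.369 CPM in quercetin libraries. Dio1, which encodes the deiodinase that makes and clears thyroid hormone in liver, averaged 168 ± 20.6 CPM in control, 227 ± 33.9 in model, 149 ± 80.4 in quercetin, 219 ± 13 in myricetin and 194 ± 20.6 in kaempferol liver (SD, n = 3 each), with no call.

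Retinoic acid receptors answer to the vitamin A derivative all-trans retinoic acid. Rara, the alpha form, on chromosome 11 at 98927818 to 98974942 (GRCm38, plus strand), was at 24.7, 30.5 and 30.8 CPM in control and at 21.0, 16.9 and 19.5 CPM in model liver. All model libraries lay below all control libraries, and Rara fell by 0.58 ± 0.14 (n = 3 each, edgeR adjusted p = 0.0293). The flavonoid groups stayed near model, from 17.8 to 24.4 CPM. Without single libraries the call held only when control library 1 was left out (edgeR adjusted p = 0.0148), and without control library 2 the value was 0.125. Rarb, at 0.837 to 3.00 CPM, and Rarg, at 4.81 to 7.33 CPM, did not pass in any comparison. Of 13 genes of retinoid metabolism and response, 0 passed between model and control and 1, Dhrs3, fell with quercetin by 0.65 ± 0.13 (edgeR adjusted p = 0.00672). Dhrs3 encodes a reductase that turns retinal back to retinol. Cyp26a1, the retinoic acid hydroxylase, had means of 7.99 ± 4.96 CPM in control, 3.72 ± 2.39 in model, 10.1 ± 6.54 in quercetin, 6.10 ± 0.236 in myricetin and 3.31 ± 2.23 in kaempferol liver (SD, n = 3 each) and did not pass.

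RXRs are the shared partners of most of these receptors. Rxra ran from 346 to 505 CPM and Rxrb from 24.9 to 33.3 CPM over the 15 libraries, with no call in any comparison. With libraries scaled by their totals alone, Rxra was called between quercetin and model. The 95% interval of the model-control difference was -0.25 to 0.20 for Rxra and -0.23 to 0.22 for Rxrb. Rxrg, the form typical of muscle and brain, was far lower, at 3.17, 2.38 and 3.54 CPM in control and at 3.98, 4.71 and 5.14 CPM in model liver. The other high-fat groups had 4.11 to 6.18 CPM, so every control library lay below every other library. Rxrg passed only the F test over 5 groups (edgeR adjusted p = 0.0416), and the difference of model from control, 0.60 ± 0.20, did not pass (0.0931). The F test lost its call when any of 11 of the 15 libraries was left out, with values up to 0.189 without control library 2.

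PXR and CAR sense drugs, bile acids and steroids and switch on cytochrome P450 genes. Nr1i2 (PXR) averaged 75.5 ± 5.43 CPM in control, 62.0 ± 4.87 in model and 78.3 ± 3.34 in quercetin liver (SD, n = 3 each), and neither difference passed (edgeR adjusted p = 0.256 and 0.158), although the quercetin difference was called with libraries scaled by their totals alone. Nr1i3 (CAR) ranged from 116 to 241 CPM, with group means between 155 and 183 CPM and no call. It shares 3304 of its 4414 exon bases with Tomm40l on the opposite strand, and reads of the shared bases cannot be assigned. Of 24 tested targets of PXR and CAR, 1 fell in model liver (Ugt1a9, by 1.70 ± 0.36, edgeR adjusted p = 0.0249) and 5 rose with quercetin, with none lower. Among these were Slco1a4, a bile acid and drug transporter, higher by 1.28 ± 0.26, Cyp2a5, a coumarin hydroxylase, by 1.66 ± 0.36, and Por, the reductase that feeds electrons to the P450 enzymes, by 0.98 ± 0.25. Their edgeR adjusted p-values were 0.0117, 0.0186 and 0.0311, and the median over the 24 was 0.45. The genes most used as readouts did not pass. Cyp3a11 (PXR) averaged 3098 ± 441 CPM in control, 3072 ± 280 in model, 3787 ± 440 in quercetin, 2784 ± 565 in myricetin and 3782 ± 1040 in kaempferol liver. Cyp2b10 (CAR) averaged 68.2 ± 25.9, 81.2 ± 24.9, 34.9 ± 12.2, 32.4 ± 5.79 and 73.5 ± 30.5 CPM in the same order (SD, n = 3 each).

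PPAR delta, encoded by Ppard on chromosome 17 at 28232700 to 28301474 (GRCm38, plus strand), binds fatty acids and promotes their oxidation. Ppard was at 31.3, 13.5 and 35.5 CPM in control and at 26.6, 36.5 and 31.3 CPM in model liver, with overlapping ranges. Quercetin libraries had 6.45, 8.49 and 5.72 CPM and myricetin libraries 12.2, 7.36 and 5.00 CPM. Kaempferol libraries had 18.2, 11.2 and 19.6 CPM. Every flavonoid library was below every model library, and the quercetin and myricetin libraries were also below all controls. Ppard fell by 2.19 ± 0.39 in quercetin against model (n = 3 each, 95% interval -3.01 to -1.37, edgeR adjusted p = 0.00633), a call that held when any of the 6 libraries compared was left out. The myricetin difference was nearly as large, -1.94 ± 0.38 (95% interval -2.75 to -1.13), and missed the threshold (edgeR adjusted p = 0.0628), while 5 of 16 alternative settings and left-out libraries put it past. Leaving out myricetin library 5 gave 0.0316. The kaempferol difference was -0.94 ± 0.36 (edgeR adjusted p = 0.319). In the authors' deposited table the q values were 8.02e-26, 1.34e-12 and 0.00104. The F test between the 3 flavonoid groups did not pass for Ppard (edgeR adjusted p = 0.167).

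**Figure D3:**
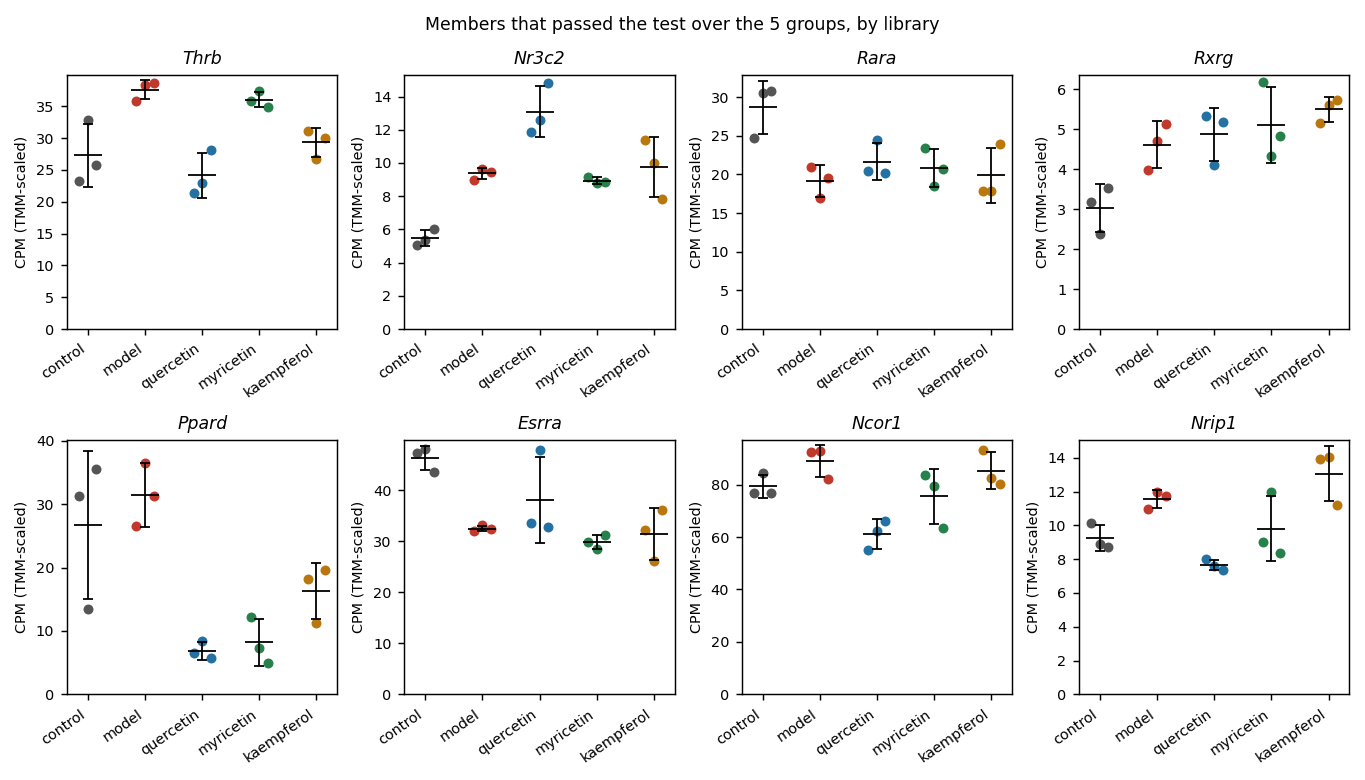
TMM-scaled CPM in each of the 15 libraries for the 8 genes that passed the F test over the 5 groups, one panel per gene, with points for libraries and black bars for the mean ± SD. Thrb drops from model to quercetin while myricetin stays at model level, Ppard is low in quercetin and myricetin, and Nr3c2 climbs from control through model to quercetin.

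Genes with a strong time-of-day rhythm in liver moved beside Ppard. Of 18 such genes, 1 passed between model and control (Nfil3, higher), 13 with quercetin (7 higher, 6 lower) and 5 with myricetin (3 higher, 2 lower). Dbp, a clock output activator, averaged 2.43 ± 0.553 CPM in control, 2.68 ± 0.425 in model, 143 ± 18.7 in quercetin, 16.9 ± 10.1 in myricetin and 1.59 ± 0.365 in kaempferol liver (SD, n = 3 each). Arntl, which encodes BMAL1, averaged 26.4 ± 4.32, 28.6 ± 2.02, 2.66 ± 1.17, 17.5 ± 5.22 and 27.0 ± 2.98 CPM in the same order. In both genes the quercetin libraries stood farthest from model, with the myricetin mean between. Per1, a clock repressor, averaged 45.4 ± 8.27, 8.48 ± 5.13, 36.0 ± 15.7, 12.9 ± 10.2 and 4.57 ± 4.82 CPM. Npas2, a partner of BMAL1, averaged 5.39 ± 4.33, 7.49 ± 0.93, 0.154 ± 0.0875, 2.75 ± 2.99 and 10.3 ± 1.38 CPM. The labels give no hour of collection, and the part of these genes in the Ppard result was not tested.

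**Figure D4:**
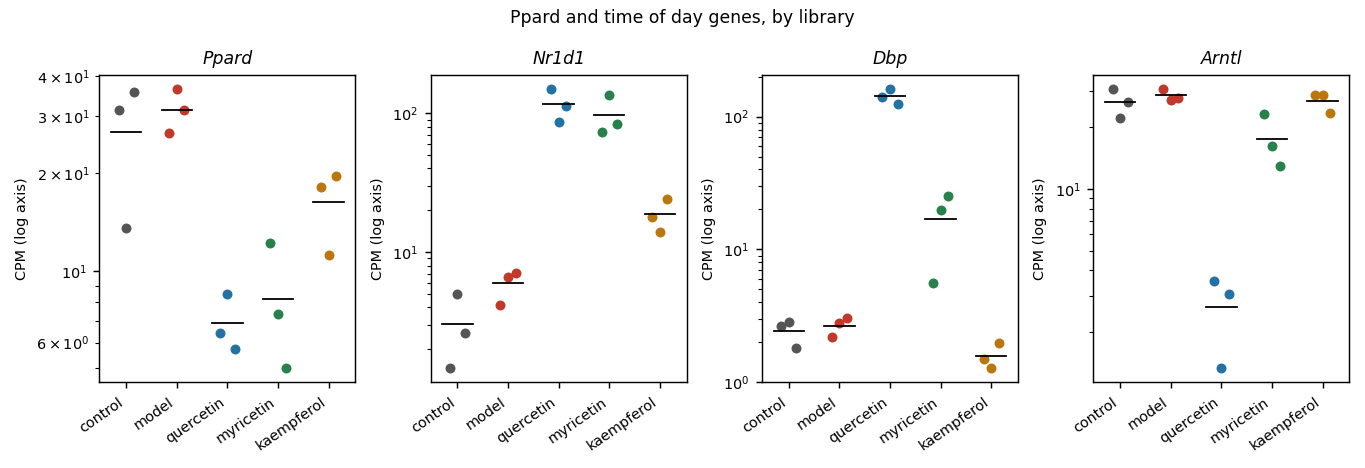
CPM on log axes in each of the 15 libraries for Ppard and genes with a daily rhythm, one panel per gene, with points for libraries and black lines for group means. Ppard is low in quercetin and myricetin libraries, Arntl has its lowest mean in quercetin, and Dbp and Nr1d1 have their highest means there.

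The wider set of 12 genes answering to PPAR delta and fatty acids had 0 calls between model and control. With quercetin, 1 rose and 2 fell. Pdk4, the kinase that shuts pyruvate dehydrogenase and a standard PPAR target, fell by 2.64 ± 0.40 (edgeR adjusted p = 0.00158), from 9.12, 12 and 10.3 CPM in model to 2.56, 1.05 and 1.42 CPM in quercetin liver. Plin2, a lipid droplet coat protein, fell by 0.77 ± 0.17 (0.0133), and Vldlr, a lipoprotein receptor, rose by 2.52 ± 0.48 (0.00495). The median over the 12 was -0.05.

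Esrra encodes ERR alpha, an orphan receptor that drives mitochondrial genes together with PGC-1 coactivators, and lies on chromosome 19 at 6910977 to 6921813 (GRCm38, minus strand). It was at 47.2, 48.1 and 43.5 CPM in control and at 32.0, 33.1 and 32.3 CPM in model liver. The ranges did not overlap, and Esrra fell by 0.51 ± 0.14 (n = 3 each, edgeR adjusted p = 0.043). Among the flavonoid libraries, quercetin library 5 alone was at the control level, with 47.8 CPM, and the other 8 were between 26.1 and 36.1 CPM. The call was lost when any of the 6 control and model libraries was left out, with edgeR adjusted p-values of 0.0637 to 0.152. Esrra shares 73 of its 4387 exon bases with Trmt112 on the opposite strand, and Trmt112 differed by -0.01 between model and control. Of 17 targets of ERR and PGC-1, 0 passed in any of the 4 comparisons, with medians of 0.04 in model and -0.02 in quercetin liver.

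Nr5a2, which encodes LRH-1, a regulator of bile acid synthesis, averaged 40.9 ± 2.92 CPM in control and 47.5 ± 5.34 CPM in model liver (SD, n = 3 each) and was not called in any comparison. Hnf4g, a minor relative of the hepatocyte regulator HNF4 alpha, was too low to test. Of 13 tested genes that answer to LRH-1 and HNF4, G6pc, the last enzyme of glucose output, rose in model liver by 1.4 ± 0.29 (edgeR adjusted p = 0.0209). Mat1a, which makes S-adenosylmethionine, fell by 0.62 ± 0.16 (edgeR adjusted p = 0.0421). With quercetin only Cyp8b1 passed, the enzyme that makes cholic acid, which fell by 1.48 ± 0.23 (0.00178).

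Nr3c2, which encodes the mineralocorticoid receptor, lies on chromosome 8 at 76899442 to 77245012 (GRCm38, plus strand). It was at 5.07, 5.35 and 6.03 CPM in control and at 9.0, 9.65 and 9.49 CPM in model liver. Quercetin libraries had 11.8, 12.6 and 14.8 CPM, above every other library. Myricetin libraries, at 9.15, 8.80 and 8.85 CPM, and kaempferol libraries, at 11.4, 10.0 and 7.83 CPM, remained around the model level. Nr3c2 rose 1.71-fold in model against control, by 0.77 ± 0.15 (n = 3 each, edgeR adjusted p = 0.0123), and again by 0.48 ± 0.14 in quercetin against model (0.048). The first of these lost its call only without control library 2 (0.0565) among the left-out libraries. The second lost it without any one of the 6 libraries compared, with edgeR adjusted p-values of 0.052 to 0.162, and the authors' deposited table gave it a q value of 0.134. The F test over the 5 groups (edgeR adjusted p = 0.00108) passed in all 24 alternative settings and left-out libraries.

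The mineralocorticoid and glucocorticoid receptors share many target genes. Of 12 such genes 2 fell in model liver, with a median of -1.06, and 2 rose and 1 fell with quercetin, with a median of 0.76. Zbtb16, a zinc finger repressor, fell by 2.67 ± 0.29 in model liver (edgeR adjusted p = 0.00184) and rose by 1.29 ± 0.28 with quercetin (0.0173). Cdkn1a, the cell cycle inhibitor p21, fell by 1.97 ± 0.27 in model liver (0.00494) and again fell by 2.45 ± 0.33 with quercetin (0.000667). Mt2, a metallothionein, rose with quercetin by 5.29 ± 1.21 (0.0236) from 0.288 ± 0.231 to 11.5 ± 7.42 CPM (SD, n = 3 each). Tsc22d3, which encodes GILZ, averaged 234 ± 63 CPM in control, 99.5 ± 28 in model, 100.2 ± 49 in quercetin, 86.0 ± 50.9 in myricetin and 51.5 ± 38.2 in kaempferol liver, with no call. Fkbp5, a chaperone of steroid receptors, averaged 44.1 ± 23.2, 18.1 ± 4.23, 34.8 ± 25.8, 21.4 ± 4.68 and 22.6 ± 7.93 CPM, also with no call.

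Esr1, which encodes estrogen receptor alpha, varied widely within groups. It was at 17.9, 14.2 and 12 CPM in control, 24.4, 19.4 and 19.6 CPM in model, 21.6, 9.38 and 8.92 CPM in quercetin, 16.9, 8.14 and 7.76 CPM in myricetin and 15.9, 9.74 and 10.8 CPM in kaempferol liver. All myricetin and kaempferol libraries lay below all model libraries, and 1 quercetin library lay within the model range. The differences from model were -0.67 ± 0.37 for quercetin, -0.95 ± 0.37 for myricetin and -0.80 ± 0.37 for kaempferol, and none passed (edgeR adjusted p = 0.303, 0.336 and 0.434). Without quercetin library 2, the high one, the quercetin difference was -1.21 and passed (edgeR adjusted p = 0.0474). In the authors' deposited table, Esr1 had q values of 0.0112 for myricetin and 0.0114 for kaempferol. The labels do not give the sex of the mice.

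Among the orphan receptors, Nr2c1 and Nr2c2 (the testicular receptors TR2 and TR4), Nr2f2 (COUP-TFII), Nr2f6 and Nr4a1 (the immediate early gene NUR77), 0 of 5 passed in each of the 4 comparisons. Their differences ran from -0.15 to 0.26 between model and control and from -0.17 to 0.23 between quercetin and model. Nr2f6, the most abundant of them, kept between 98.4 and 123 CPM, and the 95% interval of its quercetin difference was -0.18 to 0.17. Nr2f2 ran from 19.1 to 32.4 CPM, Nr2c2 from 17.4 to 30.2, Nr2c1 from 8.81 to 13.1 and Nr4a1 from 0.756 to 3.12 CPM. Some genes share exon bases with a gene on the opposite strand, and reads of those bases cannot be assigned. Nr2c2 shares 4590 of 14935 with Mrps25 and Nr2f6 1622 of 2983 with Ocel1. Rarb shares 1793 of 5265 with Top2b and Ncoa3 154 of 7895 with Sulf2. Of 14 other immediate early genes, Jund fell in model liver by 0.48 ± 0.12 (edgeR adjusted p = 0.0342) and Junb rose with quercetin by 0.97 ± 0.24 (0.0239).

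Within the corepressor complex, the scaffold gene Ncor1 fell with quercetin. It lies on chromosome 11 at 62316426 to 62458541 (GRCm38, minus strand) and was at 76.6, 84.4 and 77.0 CPM in control, 92.3, 92.7 and 82.0 CPM in model and 55.0, 62.3 and 66.1 CPM in quercetin liver. All quercetin libraries lay below all control and model libraries, and Ncor1 fell by 0.54 ± 0.11 (n = 3 each, edgeR adjusted p = 0.00834), a call that held when any of the 6 libraries was left out. Myricetin libraries had 83.6, 79.4 and 63.5 CPM and kaempferol libraries 93.3, 82.5 and 80.1 CPM, both overlapping model and neither called. The F test over the 5 groups (edgeR adjusted p = 0.0215) was lost without model library 1 (0.0505), quercetin library 2 (0.0806) or quercetin library 5 (0.0536). Ncor1 shares 82 of its 12811 exon bases with Pigl on the opposite strand, whose quercetin difference of -0.37 did not pass (edgeR adjusted p = 0.199).

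The partners of NCOR1 were not called in the TMM fit. Tbl1x averaged 34.6 ± 2.61 CPM in control and 42.6 ± 2 CPM in model liver, a difference of 0.30 ± 0.09 that missed the threshold (edgeR adjusted p = 0.068). That difference was called with upper quartile scaling and with DESeq2. Tbl1xr1, a close relative of Tbl1x, had a 95% interval of -0.34 to 0.24 for quercetin against model, and Hdac3, the deacetylase, one of -0.05 to 0.39. The contrast of Ncor1 with these partners was not tested.

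Nrip1 encodes RIP140, which represses metabolic genes with ligand-bound receptors, on chromosome 16 at 76287400 to 76373827 (GRCm38, minus strand). It was at 10.1, 8.89 and 8.70 CPM in control, 11.0, 12 and 11.7 CPM in model and 8.00, 7.60 and 7.39 CPM in quercetin liver. All quercetin libraries were below all control and model libraries. Nrip1 fell by 0.59 ± 0.15 in quercetin against model (n = 3 each, edgeR adjusted p = 0.0206). Among left-out libraries the call held only without quercetin library 2 (0.0418), with values up to 0.0843 without model library 2. It was also lost with libraries scaled by their totals alone (0.0766). Kaempferol libraries were higher, at 13.9, 14.1 and 11.2 CPM, and myricetin libraries spread from 8.39 to 12 CPM.

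No coactivator was called, with 0 of 7 in each of the 4 comparisons. The p160 coactivators Ncoa1, Ncoa2 and Ncoa3 averaged 17.0 ± 1.13, 30.0 ± 2.01 and 22.2 ± 1.68 CPM in control liver and 17.8 ± 0.28, 36.2 ± 1.14 and 24.8 ± 0.242 CPM in model liver (SD, n = 3 each). Ncoa4 ran from 129 to 162 CPM over the 15 libraries and Ncoa6, a partner of histone methyltransferases, from 16.1 to 29.0 CPM. Med1, the Mediator subunit that docks onto receptors, ran from 22.8 to 29.9 CPM, with a 95% interval of -0.26 to 0.22 for model against control. Ppargc1b, which encodes PGC-1 beta, an activator of lipogenic and mitochondrial genes, had the widest range of the group, 5.31 to 24.0 CPM. It was at 10.7, 12.6 and 15.1 CPM in model and 24.0, 13.3 and 19.9 CPM in quercetin liver, and the difference of 0.58 ± 0.26 did not pass (edgeR adjusted p = 0.198).

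Relatives of these genes were counted the same way, against 4.46% of all tested genes called in model, 7.82% in quercetin and 0.395% in myricetin liver. Of 30 Mediator subunits 0 passed between model and control and 1, Med30, rose with quercetin by 0.70 ± 0.19 (edgeR adjusted p = 0.0325). Of 26 other coregulators 1 passed between model and control and 4 between quercetin and model. Cited2, a partner of the acetyltransferases CBP and p300, rose in model liver by 0.50 ± 0.13 (0.043) and fell with quercetin by 0.69 ± 0.13 (0.00495). Ncoa5 fell with quercetin by 0.81 ± 0.15 (0.00467) and Smarca4, a chromatin remodelling ATPase, by 0.42 ± 0.10 (0.0214), while Prmt1, an arginine methyltransferase, rose by 0.41 ± 0.12 (0.0413). Of 17 other nuclear receptors tested, 3 passed in each of the model, quercetin and myricetin comparisons. Pparg and Nr3c1 (the glucocorticoid receptor) rose in model liver by 1.27 ± 0.22 (edgeR adjusted p = 0.00858) and 0.40 ± 0.11 (0.042), and Hnf4a fell by 0.72 ± 0.15 (0.0144). The clock receptor genes Nr1d1 and Nr1d2 rose with both quercetin and myricetin, Nr1d1 by 4.3 ± 0.40 (edgeR adjusted p = 0.000159) and 4.03 ± 0.40 (0.00173).

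In myricetin liver the 2 smallest p-values among genes with lower values belonged to Ppard and Esr1. Among genes with higher values they belonged to Nr2f2, at 0.13 ± 0.12 (unadjusted p = 0.29 by edgeR), and Nr1i2, at 0.15 ± 0.14 (0.297). Ncor1, at -0.24 ± 0.11, was the other gene with an unadjusted p under 0.05. In kaempferol liver they belonged to Thrb, at -0.36 ± 0.13 (edgeR adjusted p = 0.247), and Ppard among lower values. Among higher values they belonged to Tbl1xr1, at 0.29 ± 0.14 (edgeR adjusted p = 0.42), and Rxrb, at 0.18 ± 0.10 (0.56). Thrb, Ppard, Tbl1xr1 and Tbl1x were the 4 genes with an unadjusted p under 0.05. The share of all tested genes at that cut was not counted for either flavonoid, so these genes are listed without being called changed. With 3 libraries a group, the 95% interval of a typical gene reached 0.34 to either side on the log2 scale, before adjustment for the number of genes. Differences well above that could also miss the adjusted threshold. In simulated counts for model against control, 29 of 100 genes changed 1.5-fold were recovered.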

How the data were processed

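Liver RNA of 15 libraries was analysed from the table the authors deposited. It gives expected counts, which need not be whole (5.37% were not), and TPM per library, together with the authors' log2 fold changes and q values per comparison, per the file headers. The submitters' processing notes name HISAT2 2.1.0, Bowtie2 2.3.4.3, RSEM 1.3.1, DESeq2 1.4.5 and GRCm38.p6, with no role or order. The 15 FPKM columns were not used. Expected counts were rounded and fitted in edgeR 4.0.16 (R 4.3.3) over all 15 libraries, with filterByExpr by group, TMM scaling and the robust quasi-likelihood test. The common biological coefficient of variation was 0.155, and the test kept 10 residual degrees of freedom. Adjusted p-values are Benjamini-Hochberg over 12658 genes. Each SE was derived from the F statistic, as the size of the log2 change over the root of F. DESeq2 1.42.0 was an alternative, as were other scalings, filters and left-out libraries. The fit was tested on simulated data for model against control over 12543 genes, where it recovered 29 of 100 genes changed 1.5-fold and 72 of 100 changed 2-fold, in the right direction, with 12 false calls.

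The genes and the lists were chosen with earlier results of these data known. Every gene of the set is accounted for. Genes outside it were named by rule, up to 3 called genes per list, direction and comparison by smallest p, plus 4 clock genes and 6 receptor targets in every group. Some genes that the rule names are not reported here. Pigl, Trmt112, Hr values per library and the overlapping genes were added after values were seen. Gene positions and exon overlaps come from GENCODE M21 (GRCm38). Same-numbered libraries of different groups did not deviate together, so no pairing was used.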

Additional observations from a re-analysis of the deposited data

Results flagged for a closer look

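A pair of genes differed between the 3 flavonoid groups by edgeR's F test of the difference itself, with Benjamini-Hochberg adjustment over all tested genes. For Thrb the adjusted p was 0.0451. Quercetin libraries averaged 24.1 ± 3.49 CPM, kaempferol libraries 29.3 ± 2.3 CPM and myricetin libraries 36.0 ± 1.21 CPM (SD, n = 3 each), and every myricetin library was above every quercetin and kaempferol library. The call was lost without 7 of the 9 flavonoid libraries in turn and held without quercetin library 8 (0.0184) or kaempferol library 5 (0.0402). For Nrip1 the adjusted p was 0.018. Quercetin libraries averaged 7.66 ± 0.314 CPM, myricetin libraries 9.81 ± 1.93 CPM and kaempferol libraries 13.1 ± 1.63 CPM (SD, n = 3 each), and every quercetin library was below every library of the other flavonoids. That call was lost without quercetin library 5 (0.0623), kaempferol library 3 (0.0815) or kaempferol library 5 (0.0529). The doses of the compounds differ, so compound and dose cannot be told apart.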

How the results depend on the processing

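Direction was compared between runs only for Thrb, Rara, Ppard, Rxrg, Esrra, Nr3c2, Ncor1, Nrip1, Esr1 and Thra. Their small differences that had not passed were left out. None of the differences compared changed direction under any alternative run. The count of called genes moved by over 1.5 times as follows. Between model and control, 4 became 1 (Nr3c2) with library totals alone and 1 (Nr3c2) without both model library 5 and kaempferol library 8, and 1 to 2 when single libraries were left out. Between quercetin and model, 5 became 3 without that pair of libraries and 3 to 5 when single libraries were left out. Between myricetin and model, 0 became 1, Ppard each time, with the stricter low count filter, with DESeq2, without robust fitting and with only the groups compared, and 0 to 1 with single libraries left out. Between kaempferol and model it was 0 throughout. The F test over 5 groups, with 8, gave 5 to 9 with single libraries left out. The F test over the 3 flavonoid groups, with 2, gave 1 with library totals alone, 6 with DESeq2, 0 with only the groups compared, 1 without both named libraries and 0 to 2 with single libraries left out. Calls over all tested genes moved too. For that F test they were 327 in the main fit, 468 with library totals alone and 737 with DESeq2. They were 190 with only the groups compared and 236 without both named libraries. Between model and control they went from 565 to 427 with library totals alone. Counts over all genes for the other runs are not given here. The cause of the shifts was not tested. Leaving out both libraries was chosen after seeing the data.

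With the replicate number as a block, 0 genes passed between model and control, 1 (Thrb) between quercetin and model, 1 (Nr3c2) in the F test over 5 groups and 0 in that over the 3 flavonoid groups. Calls over all tested genes fell with the block too, from 565 to 43 between model and control. They fell from 2039 to 217 in the F test over 5 groups and from 327 to 58 in that over the 3 flavonoid groups. The lost calls are therefore not read as a result about this set. Deviations from group means of 14 same-numbered pairs had a median correlation of -0.06 (-0.27 to 0.10), so the numbers give no sign of pairing.

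Scaling by library totals alone shifted the median of all tested genes to 0.15 for quercetin and 0.11 for myricetin. The share of calls that were higher went from 51.9% to 85.3% for quercetin, from 46% to 83.1% for myricetin and from 40% to 80% for kaempferol. With that scaling 6 genes passed between quercetin and model, 4 of them shared with the 5 of the TMM fit, as Rxra and Nr1i2 were gained and Nrip1 was lost. Calls over all tested genes in that comparison went from 990 to 1731. In simulated counts for model against control, 29 of 100 genes changed 1.5-fold and 72 of 100 changed 2-fold were recovered.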
